A study of Mus musculus with 4 samples.

Results

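The genes described here are 10 of the 31053 gene symbols in the deposited count matrix, chosen by name: the zinc-finger transcription factors Egr1, Egr2, Egr3 and Egr4, the orphan nuclear receptors Nr4a1, Nr4a2 and Nr4a3, and Btg2, Arc and Ier2. All 10 were found in the matrix, each as 1 row. They were chosen with insulin against saline results of these libraries already known, so values of that contrast are given as a description, with no test. The tissue was the mediobasal hypothalamus of wild-type mice fed chow ad libitum. Mice received saline (2 libraries) or insulin (2 libraries), and the sources used here give no dose, route, interval after treatment, age or number of mice per library. Nuclei were isolated, cleaned by flow sorting and profiled with 10x 3′ gene expression chemistry, in which each molecule carries a unique molecular identifier (UMI). A deposited table assigned 36523 analysed nuclei to libraries, cell types and, for neurons, numbered populations.

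Egr, Nr4a, Btg2, Arc and Ier2 belong to the immediate early genes, whose transcription starts within minutes of a stimulus because the proteins that switch them on are already present in the cell. In neurons, calcium entry and growth factor signalling reach their promoters through phosphorylated CREB, which binds the cAMP response element (CRE), and through SRF with its ternary complex partners, which bind the CArG box of the serum response element. The Egr proteins bind a GC-rich site and activate later genes, the Nr4a proteins act without a known physiological ligand and are controlled by their own abundance, Btg2 slows proliferation and recruits the CCR4-NOT deadenylase to messenger RNA, Arc forms capsid-like particles and removes AMPA receptors from synapses, and Ier2 is a short nuclear protein.

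Promoters are shown for the short sequences that CREB and SRF are known to bind: Btg2 for a full CRE, Nr4a1, Nr4a2 and Nr4a3 for repeated short cores and Egr2 for a CArG box. Of the 10 genes, 6 had a promoter in the RefSeq table for GRCm38.p6: Egr2, Egr4, Nr4a1, Nr4a2, Nr4a3 and Btg2. The bases printed lie upstream of a RefSeq start, run 5′ to 3′ on the gene's strand, and carry in capitals each CRE (TGACGTCA), each short CRE core (TGACG, which also lies inside the CRE) and each CArG box, searched on both strands.
Btg2, chr1:134079156-134079405, minus strand: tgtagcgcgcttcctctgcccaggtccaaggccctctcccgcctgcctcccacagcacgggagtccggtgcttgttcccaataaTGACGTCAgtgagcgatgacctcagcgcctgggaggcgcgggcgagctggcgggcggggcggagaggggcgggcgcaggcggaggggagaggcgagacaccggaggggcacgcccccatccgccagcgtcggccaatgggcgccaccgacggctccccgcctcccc
Nr4a1, chr15:101266596-101266845, plus strand: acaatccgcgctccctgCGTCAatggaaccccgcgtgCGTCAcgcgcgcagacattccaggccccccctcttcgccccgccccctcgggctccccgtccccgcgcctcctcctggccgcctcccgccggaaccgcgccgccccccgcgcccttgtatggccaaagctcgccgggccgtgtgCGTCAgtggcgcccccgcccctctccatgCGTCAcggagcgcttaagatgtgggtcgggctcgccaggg
Nr4a2, chr2:57124004-57124253, minus strand: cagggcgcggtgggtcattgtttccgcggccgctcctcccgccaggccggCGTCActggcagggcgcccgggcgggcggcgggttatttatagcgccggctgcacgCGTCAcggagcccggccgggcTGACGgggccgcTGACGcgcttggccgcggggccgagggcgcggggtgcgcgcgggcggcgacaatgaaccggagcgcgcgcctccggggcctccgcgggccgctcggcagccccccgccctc
Nr4a3, chr4:48045055-48045152, plus strand: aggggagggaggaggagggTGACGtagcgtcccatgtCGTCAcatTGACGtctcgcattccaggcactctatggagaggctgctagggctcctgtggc
Egr2, chr10:67537619-67537868, plus strand: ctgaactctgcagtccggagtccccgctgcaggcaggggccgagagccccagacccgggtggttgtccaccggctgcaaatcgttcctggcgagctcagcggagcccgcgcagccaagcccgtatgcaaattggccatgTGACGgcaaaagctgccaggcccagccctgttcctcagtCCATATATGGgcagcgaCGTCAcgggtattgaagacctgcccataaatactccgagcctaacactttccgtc
The full CRE of Btg2 lay at -166 to -159, where -1 is the base before the start, and 1.55% of 32851 promoters of the same 250 bases held one. The short core was found 4 times upstream of Nr4a1 and of Nr4a2, 3 times in the 98 printed bases of Nr4a3 (-250 to -153, with the rest left out because it overlaps an annotated exon) and 2 times upstream of Egr2, where a CArG box lay at -72 to -63. At least 1 core occurred in 17.8% of all promoters, 2 or more in 3.90% and a CArG box in 1.47%. The promoter of Egr4 held 2 cores. In neurons, described next, the groups did not overlap for Btg2, Nr4a1 and Nr4a2 but overlapped for Egr2, Egr4 and Nr4a3. The windows of Egr2, Nr4a1 and Nr4a3 belong to starts inside the annotated span of the gene, and Egr2 has other starts in the table. Its window from chr10:67535249 held no core and no CArG box, and that from chr10:67537316 held 1 CArG box and no core. Those from chr10:67537620 and chr10:67537680 held 2 cores and 1 CArG box each. These matches describe letters and were not tied to binding in this tissue.

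In the annotation of the same build (GENCODE M21), the members lay on 9 chromosomes and no other annotated gene overlapped any of them. Btg2 (ENSMUSG00000020423) lay at chr1:134075170-134079120 (minus strand), Egr1 (ENSMUSG00000038418) at chr18:34859823-34864984 (plus strand), Nr4a1 (ENSMUSG00000023034) at chr15:101254269-101274795 (plus strand) and Nr4a2 (ENSMUSG00000026826) at chr2:57106830-57124003 (minus strand). Counts of 3′ reads were compared between libraries and between cell groups for each gene, and levels are in CPM, UMI counts of the gene scaled to the same total (1000000) over all genes of those nuclei.

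Libraries are named by treatment and by the sequencing run in the deposited table, in which runs 230 and 232 each held 1 Saline and 1 Insulin library. Values in pairs below give run 230 first. Each library held 8352 to 9796 annotated nuclei and 63590421 to 71391593 UMIs, and neurons made up 5326 to 6366 of the nuclei with a median of 7164 to 9330.5 UMIs. Run and sex coincided. CPM of the female-specific RNA Xist came to 4.53 (Saline) and 4.88 (Insulin) for run 230, against 1614 (Saline) and 1713 (Insulin) for run 232. The labels do not say that libraries came from separate mice, so errors measure only the spread between these libraries. Of 318 cell barcodes found in more than 1 library (among 36205), 179 were shared within run 230 and 65 within run 232, and without their 636 nuclei no member's log2 change in neurons changed sign. For 6 of the 8 cell types, the summed markers of the named type were highest in that type. The list for ependymal cells and tanycytes reached 2945 CPM outside nuclei annotated Ependymo, which had 1498 to 2104 CPM. Nuclei annotated Endothelial bore out their label only in part, with Flt1 at 279 CPM but Cldn5 at 1.69, Cdh5 at 0.319 and Pecam1 at 3.87 CPM. Of the list for ependymal cells and tanycytes, they held Col23a1 at 2423 and Rax at 84.4 CPM, above nuclei annotated Ependymo (304 and 2.08 CPM). Foxj1 (14.1), Ccdc153 (3.92) and Tmem212 (45.7 CPM) of that list were below nuclei annotated Ependymo (82.8, 305 and 1178 CPM). Nuclei annotated Mural Cell held endothelial genes (Flt1 1621, Cldn5 538 CPM) beside mural genes (Rgs5 598, Pdgfrb 525 CPM), and both are called by their annotation only.

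In neurons, all 10 genes had a higher mean in the Insulin libraries, with log2 changes of 0.46 to 1.37. Btg2, the most abundant, was at 10.7 and 12.2 CPM in the Saline libraries and 17.4 and 28.1 CPM in the Insulin libraries. Both Insulin libraries lay above both Saline libraries, with means of 11.4 ± 1.04 CPM in Saline and 22.8 ± 7.58 CPM in Insulin (SD, n = 2 each) and a log2 change of 0.98 (SE 0.25). The Insulin library of run 232 was the highest, and without it the log2 change was 0.63.

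Among the Egr genes, Egr1, the most abundant of the family in these neurons and a textbook marker of neuronal activity, stood at 4.03 and 4.62 CPM in the Saline libraries and 6.75 and 9.56 CPM in the Insulin libraries. The groups did not overlap, and the log2 change was 0.91 (SE 0.24). Egr3 was low, at 0.663 and 0.496 CPM in the Saline libraries and 0.977 and 0.775 CPM in the Insulin libraries from 28 to 55 UMIs per library. Its groups also did not overlap, although the Saline library of run 230 lay close to the Insulin library of run 232. Egr4, at 0.315 and 1.04 CPM in Saline and 0.906 and 1.71 CPM in Insulin, overlapped between groups but was higher in Insulin within each run. Egr2, which is best known from myelinating Schwann cells and hindbrain patterning, was at 0.282 and 0.142 CPM in Saline and 0.213 and 0.557 CPM in Insulin from 8 to 28 UMIs, and its Insulin library of run 230 was below the Saline library of the same run. When each library was left out in turn, the log2 change ran from 0.35 to 2.00 for Egr4 and from 0.02 to 1.44 for Egr2.

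Of the nuclear receptors, Nr4a1 was at 10.3 and 9.50 CPM in the Saline libraries and 12.3 and 15.1 CPM in the Insulin libraries. Its groups did not overlap, with a log2 change of 0.46 (SE 0.18), the smallest of the 10 with all 4 libraries. Nr4a2, which midbrain dopamine neurons need for their identity, was at 2.50 and 1.33 CPM in Saline and 4.46 and 4.15 CPM in Insulin. Both Insulin libraries lay above both Saline libraries, and the log2 change was 1.15 (SE 0.39). Nr4a3 was at 3.05 and 1.20 CPM in Saline and 2.75 and 5.29 CPM in Insulin, where Saline of run 230 exceeded Insulin of run 230, so the groups overlapped. Without the Insulin library of run 232 its log2 change fell from 0.89 to 0.38.

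Arc and Ier2 were low in neurons. Arc was at 0.812 and 1.22 CPM in Saline and 1.56 and 2.23 CPM in Insulin, with a log2 change of 0.89 (SE 0.36). Ier2 was at 0.331 and 0.726 CPM in Saline and 0.906 and 1.83 CPM in Insulin, the largest log2 change of the 10 with all 4 libraries at 1.37 (SE 0.55). Without the Insulin library of run 232 it was 0.81, below the 1.23 of Nr4a2 in the same fit. In both, the groups did not overlap, and Ier2 rested on 20 to 92 UMIs per library.

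**Figure D1:**
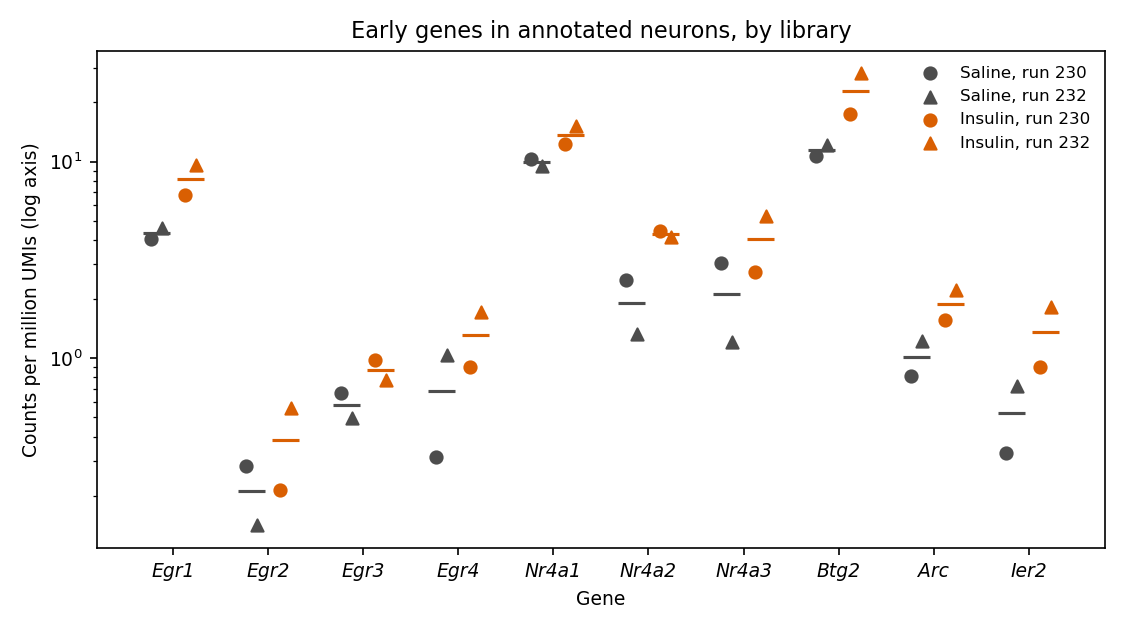
CPM of the 10 early genes in annotated neurons, on a log axis, with 1 point per library (circles run 230, triangles run 232, grey Saline, orange Insulin) and a bar at each group's mean. Both orange points lie above both grey points for 7 genes, and Btg2 in the Insulin library of run 232 is the highest point of the plot at 28.1 CPM.

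In neurons 7 of 10 members had both Insulin libraries above both Saline libraries (Egr1, Egr3, Nr4a1, Nr4a2, Btg2, Arc and Ier2), and 3 overlapped. Of all 20275 genes tested, 8.74% had both Insulin libraries above both Saline libraries and 11.6% had both below. Nothing is read from the members' count because the contrast chose them. No gene, member or not, passed an adjusted p of 0.05 in edgeR's quasi-likelihood test over these 4 libraries (0.0% of 20275), while 103 genes had an unadjusted p under 0.05 by edgeR and 97 by DESeq2, which also called 0. The median log2 change of the 10 members was 0.90, and that of all genes tested was 0.00356. In summed counts, more nuclei with transcripts and more RNA per nucleus cannot be told apart. Markers of other cell types stayed low in neurons. The summed astrocyte list, for example, was at 23.98 and 54.1 CPM in Saline and 34.8 and 48.3 CPM in Insulin neurons, and the part of such markers in the member values was not tested.

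The share of nuclei with a transcript was read after drawing 2000 UMIs from each neuron, which left out 214 of 23261 neurons (86 Saline, 128 Insulin). At least 1 of the 10 genes was then detected in 6.04% and 6.11% of Saline neurons and in 9.08% and 10.4% of Insulin neurons. The groups did not overlap, and the mean share was 1.60 times as high in Insulin. Without the drawing, when neurons of the Insulin library of run 232 were shallowest (median 7164 UMIs), the shares were 20.9% and 23.8% in Saline and 27.8% and 27.5% in Insulin. Btg2 alone was detected in 2.27% and 2.47% of Saline neurons and 3.69% and 4.78% of Insulin neurons. Nr4a1 came next, in 493 of the 23047 neurons, and Egr1 in 311, with Egr1 at 0.984% and 1.09% against 1.41% and 1.90%. No cell type here is known to lack these genes. As the lowest share of that gene among the 8 cell types at the same drawn depth, Nr4a3 was detected in 1 of 1248 nuclei annotated Endothelial (0.0801%), against 0.568% of neurons.

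Neurons with several early genes at once were rare and lay mostly in the Insulin libraries. Of 23047 neurons drawn to 2000 UMIs, 1645 held 1 of the 10 genes, 142 held 2, 29 held 3, 5 held 4 and 1 held 6. At least 2 members were found in 17 of 6303 and 11 of 5303 Saline neurons (0.270% with an exact 95% interval of 0.157 to 0.431%, and 0.207% with 0.104 to 0.371%). In Insulin they were found in 46 of 5399 and 103 of 6042 neurons (0.852%, 0.624 to 1.13%, and 1.70%, 1.39 to 2.06%). These intervals cover counting error only. With 3 or more members there were 0 neurons in either Saline library. The exact 95% upper limits were 0.0585% and 0.0695%, and a floor of 3 counts stood at 0.0476% and 0.0566%. In Insulin there were 4 and 31 neurons with 3 or more members, so 31 of 35 came from the Insulin library of run 232.

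**Figure D2:**
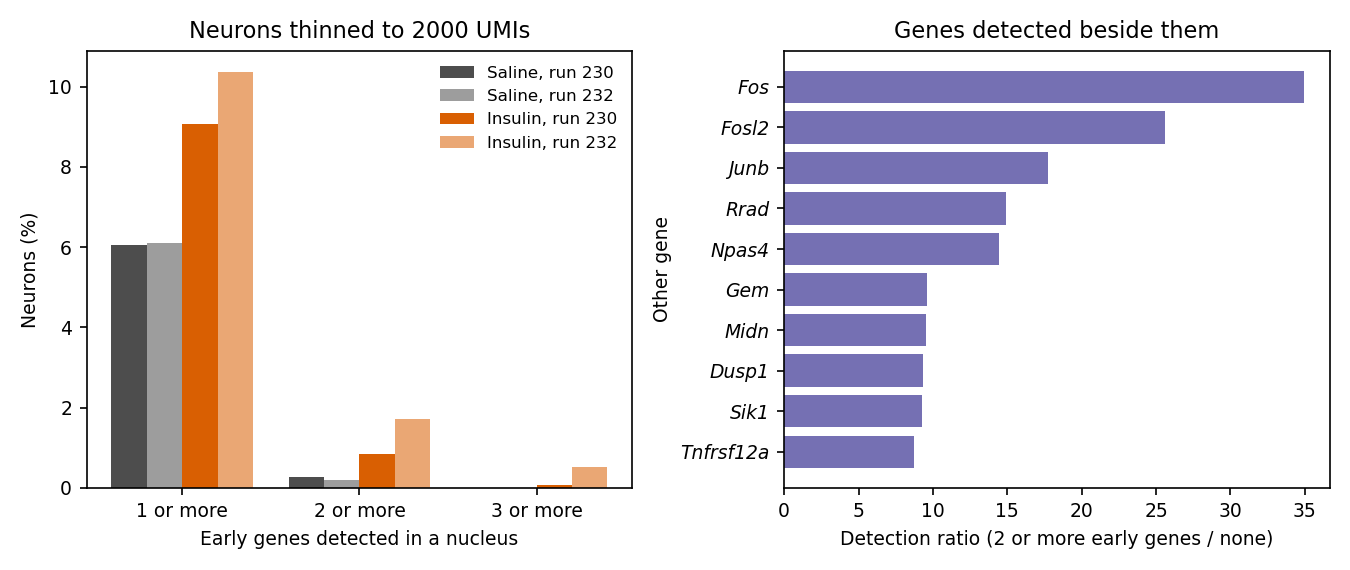
Left, percent of annotated neurons, each drawn to 2000 UMIs, in which at least 1, 2 or 3 of the 10 early genes were detected, with 1 bar per library (grey Saline, orange Insulin, paler run 232). Right, for the 10 genes ranked highest, the share of 177 neurons with 2 or more early genes that held the gene, divided by its share among 21225 neurons with none. Neurons with 3 or more early genes are seen only in the orange bars, and Fos has the highest ratio at 34.9.

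The members differed in how often they were found with another one. Of 131 neurons with Nr4a3, 38.2% held another member, and for Egr3 it was 35.5% of 31 neurons. Btg2 neurons held another member in 15.9% of 762 cases and Egr1 neurons in 18.6% of 311. Nr4a2 stood at the low end, with 10.5% of 133 neurons. The most frequent pair was Nr4a1 with Btg2, in 60 neurons, where the product of the shares within each library and population gives 23.2. Nr4a2 with Btg2 was seen in 6 neurons against a product of 4.37. Pairs within a nucleus share its depth and its population, and are given as a description.

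The genes most enriched in neurons with several members are themselves known early genes. Among 14244 genes detected in at least 100 neurons, Fos, the partner of Jun in the AP-1 factor, was found in 16.9% of the 177 neurons with 2 or more members and in 0.485% of the 21225 neurons with none. Next in the ratio of these shares came Fosl2 at 25.6, Junb at 17.8, the small GTPase Rrad at 14.9 and Npas4, an activity-dependent transcription factor of neurons, at 14.4. The 177 neurons were 17 and 11 from the Saline libraries and 46 and 103 from the Insulin libraries. These ratios were not split by library or population, so differences between the libraries are part of them, and they are a description. Across 140 points (35 populations in 4 libraries), the genes whose log2 CPM was most like the summed log2 CPM of the members were Fos (Pearson r 0.70), Fosl2 (0.68), Junb (0.67), the histone demethylase gene Kdm6b (0.65) and Ptprn (0.63), out of 12165 ranked. Points of a library share its preparation and depth, and r is a description.

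In neurons, 4 lists of related genes were read by the same comparison, and no gene of any list was called. Of 36 other early genes, 35 were tested and 34 had a higher mean in Insulin. Their median log2 change was 0.59, and 22 of 36 had both Insulin libraries above both Saline libraries. Gem, a GTPase that restrains calcium channels, was at 10.1 and 11.2 CPM in Saline and 18.5 and 25.98 CPM in Insulin. Fos was at 2.10 and 1.43 CPM against 4.09 and 10.2 CPM, and Rrad at 3.56 and 4.39 CPM against 6.54 and 8.57 CPM. Fosl1 was the exception, at 10.1 and 9.27 CPM against 9.91 and 8.49 CPM. This list overlaps in kind with the genes that led to the choice of members and supports nothing on its own.

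The other 3 lists had smaller medians. Of 16 delayed or effector activity genes, 15 were tested, 14 were higher and the median log2 change was 0.17. In it, Vgf, a secretory granule protein, was at 42.2 and 47.7 CPM against 48.5 and 58.9 CPM, Nrn1 at 10.7 and 10.7 CPM against 17.96 and 11.7 CPM and Rasl11b at 2.55 and 4.11 CPM against 3.91 and 8.43 CPM, while Inhba was at 43.8 and 18.2 CPM against 24.7 and 14.7 CPM. Of 14 partners and feedback genes, 12 were higher and 2 lower, with a median of 0.11. Nab2, which represses Egr proteins, was at 4.38 and 5.36 CPM against 4.48 and 3.82 CPM. Btg1, the close relative of Btg2, was at 16.01 and 26.8 CPM against 23.1 and 35.8 CPM, Tob1 at 10.6 and 16.2 CPM against 16.6 and 17.5 CPM, Ier5l at 4.08 and 5.93 CPM against 7.55 and 6.12 CPM and Cnot7, a CCR4-NOT deadenylase, at 71.4 and 63.3 CPM against 65.7 and 63.4 CPM. The 16 upstream transcription factors, which act through phosphorylation or nuclear entry rather than abundance, had 6 higher and 10 lower genes and a median of -0.00870. Crtc1, a CREB coactivator, was at 64.2 and 65.7 CPM against 57.8 and 57.5 CPM, Mef2d at 63.9 and 54.0 CPM against 53.5 and 48.7 CPM, and Mkl1, Elk4 and Crtc3 differed between the group means by log2 0.05, 0.05 and 0.03.

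Sequencing run and sex were compared in neurons with treatment in the fit, a contrast that did not choose the members. Egr4 was higher in run 232 than in run 230, at a log2 difference of 1.20 (SE 0.32, adjusted p = 0.0464 in edgeR's quasi-likelihood test), and this was 1 of 10 members called where 10.8% of 20275 genes were. Ier2 had a log2 difference of 1.00 (SE 0.30) and an adjusted p of 0.0636, which became 0.0303 without the filter on low counts. The remaining members had log2 differences between -0.53 and 0.49, none past the threshold. Run and sex cannot be told apart here.

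Cell types differed in which members they held most of. Each cell type was compared with the mean of the other 7 in edgeR with the library as a block. Because the types are the authors' clusters of these same nuclei, the calls describe the annotation and are not an independent test. Only 6 members passed the filter on low counts (Btg2, Egr1, Ier2, Nr4a1, Nr4a2 and Nr4a3). Egr2, Egr3, Egr4 and Arc did not. Of the 48 contrasts of these 6 genes, 10 were higher (20.8%) and 13 lower (27.1%), near the 25.2% and 21.3% of all genes.

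Among the 8 named cell types, nuclei annotated Mural Cell had the highest mean Btg2 and Ier2. Nuclei annotated Unassigned, which were shallower and not in the fit, had a higher mean Ier2 of 152 CPM. Btg2 was at 106 and 151 CPM in the Saline libraries and 174 and 431 CPM in the Insulin libraries, all above every neuronal library, and its log2 difference from the other types was 3.20 (SE 0.20). Ier2 was at 42.5 and 72.1 CPM in Saline and 49.7 and 113 CPM in Insulin, a log2 difference of 4.55 (SE 0.28). Both rest on few nuclei, 64 to 115 per library, with 20 to 126 UMIs of Btg2. These nuclei were shallow, with a median of 1768 to 2085 UMIs by library, of which 0.206 to 0.545% were mitochondrial. Egr1 was also called higher there (log2 1.96, SE 0.42) from 24 UMIs, 13 of them in the Insulin library of run 232, without which the call was lost (log2 1.60). Nr4a2 (15 UMIs) lost its call without the Saline library of run 232 (log2 1.57), and Nr4a3 (8 UMIs) lost it without the Saline library of run 230 or the Insulin library of run 232 (log2 2.88 and 2.73). Of all genes, 17.9% were called higher in this annotation.

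Neurons were called lower than the other types for Ier2, at a log2 difference of -2.25 (SE 0.24), and for Btg2, at -0.68 (SE 0.14). They were called higher for Nr4a1, at 0.72 (SE 0.18), and for Nr4a3, at 1.14 (SE 0.34). Egr1, at 0.01 (SE 0.18), was about as high in neurons as in the mean of the other types. In order of the mean over 4 libraries, Egr1 ran from 22.1 CPM in nuclei annotated Mural Cell through 6.24 CPM in neurons to 4.36 CPM in nuclei annotated Endothelial, and every neighbouring pair in that order overlapped between libraries. Oligodendrocyte precursors had the highest Nr4a1, at 11.02 and 10.4 CPM in Saline and 20.2 and 22.3 CPM in Insulin, with a log2 difference of 1.30 (SE 0.27). Astrocytes had the lowest, at 1.19 and 1.58 CPM in Saline and 2.69 and 3.24 CPM in Insulin, with every library below the lowest library of the next type in the order, the nuclei annotated Endothelial.

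Microglia had Btg2 at 35.04 and 69.2 CPM in Saline and 78.1 and 73.7 CPM in Insulin, a log2 difference of 1.31 (SE 0.23). Oligodendrocytes carried Arc at 3.97 and 7.70 CPM in Saline and 6.18 and 7.26 CPM in Insulin, above the 0.812 to 2.23 CPM of neurons in every library, although the gene is best known from synapses. These values come from 7 to 16 UMIs per library and were not in the fit. In ependymal nuclei Nr4a3 was at 9.74 and 2.82 CPM in Saline and 34.7 and 56.6 CPM in Insulin, a log2 difference of 4.60 (SE 0.44) from the other types. Of its 47 UMIs, 41 came from the Insulin library of run 232, which held 155 of the 274 ependymal nuclei, while that of run 230 held 16.

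**Figure D3:**
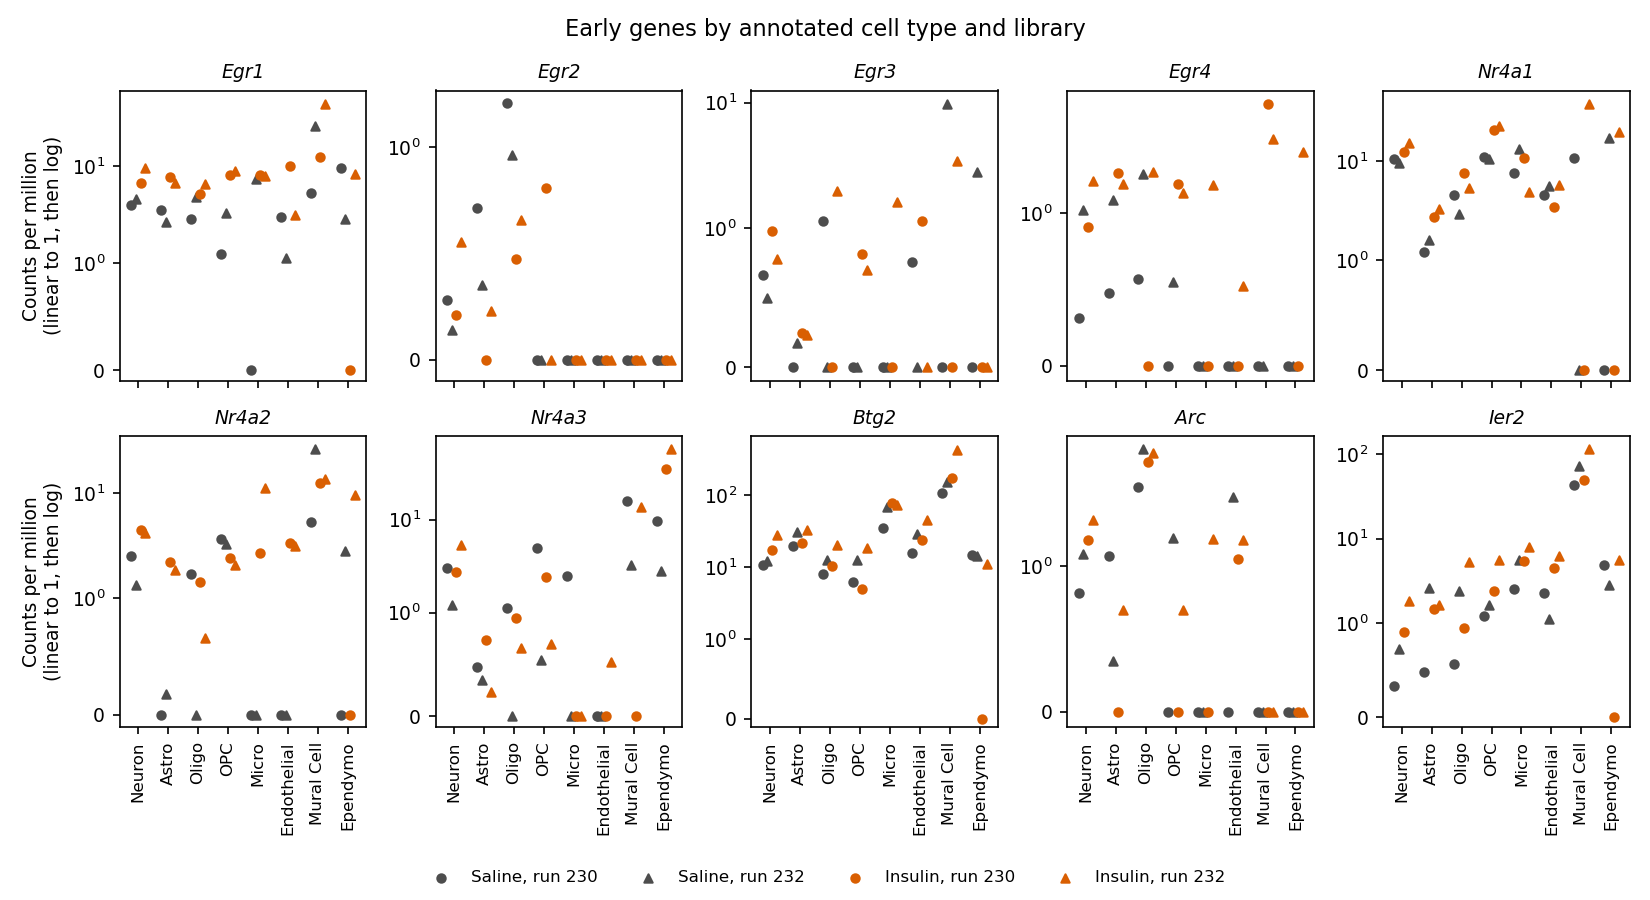
CPM of each early gene by annotated cell type, with 1 point per library (circles run 230, triangles run 232, grey Saline, orange Insulin). The axis is linear up to 1 CPM and logarithmic above, and of the 8 types shown Btg2 and Ier2 have their highest means in nuclei annotated Mural Cell, where Btg2 reaches 431 CPM.

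In each of the other 7 cell types the summed CPM of the 10 genes had a higher mean in Insulin, at 1.31 to 1.93 times the Saline mean, from fewer UMIs than in neurons. Both Insulin libraries lay above both Saline libraries in oligodendrocytes (26.1 and 33.2 CPM in Saline and 33.3 and 50.8 CPM in Insulin), oligodendrocyte precursors (28.2 and 33.9 CPM in Saline and 43.7 and 60.6 CPM in Insulin), microglia (47.6 and 95.3 CPM in Saline and 105 and 111 CPM in Insulin) and nuclei annotated Endothelial (26.4 and 40.2 CPM in Saline and 47.4 and 65.8 CPM in Insulin). The groups overlapped in astrocytes (27.6 and 39.9 CPM in Saline and 38.9 and 49.4 CPM in Insulin), ependymal nuclei (38.96 and 45.1 CPM in Saline and 34.7 and 113 CPM in Insulin) and nuclei annotated Mural Cell (186 and 288 CPM in Saline and 255 and 659.9 CPM in Insulin). In astrocytes, Egr1 was at 3.57 and 2.64 CPM in Saline and 7.82 and 6.72 CPM in Insulin and Nr4a2 at 0 and 0.176 CPM in Saline and 2.20 and 1.85 CPM in Insulin. Both Insulin libraries lay above both Saline libraries for these genes, and Nr4a2 rested on 0 and 1 UMIs in Saline against 9 and 8 in Insulin. Of the 10 members, 5 were separated upward and 1 downward (Egr2, 6 UMIs in all) in astrocytes. There, 15.4% of 13897 genes were separated upward and 10.9% downward. In oligodendrocyte precursors, 5 were separated upward and 1 downward (Nr4a2, 15 UMIs in all), against 12.9% of all genes upward and 12.3% downward. Btg2, by contrast, overlapped between the groups in astrocytes, at 19.5 and 30.4 CPM in Saline and 21.8 and 32.9 CPM in Insulin, where both Saline and Insulin were higher in run 232. No member was called in any cell type (0.0% of genes in astrocytes). Whether the change in neurons differed from that in another cell type was not tested.

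The neuron populations are the authors' clusters, and 35 of 37 held at least 10 nuclei in every library. As for cell types, each population was set against the mean of all others in a fit with the library as a block, again to describe the annotation. The 5 members that passed the filter on low counts were Btg2, Egr1, Nr4a1, Nr4a2 and Nr4a3. Of their 175 contrasts, 31 were higher (17.7%) and 11 lower (6.29%), where 13.0% and 8.16% of all contrasts were.

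Nr4a2 was called higher in 4 populations, none of which was called higher for another member. It was highest in M28.Tac2, whose label gene Tac2 encodes neurokinin B, at 37.5 and 86.2 CPM in the Saline libraries and 48.97 and 82.9 CPM in the Insulin libraries. Its groups overlapped, and its log2 difference from the other populations was 6.37 (SE 0.31). The next populations called were M19.Ddc, at a mean of 4.78 CPM and a log2 difference of 2.52 (SE 0.43), M21.Nfix (1.87, SE 0.50) and M23.Sim1|Pou3f2 (1.85, SE 0.38), and the call for M21.Nfix was lost without the Insulin library of run 230 (log2 1.53). The other 4 genes were not called higher in M28.Tac2, where Egr1 had 2 UMIs in each library.

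Btg2, Egr1, Nr4a1 and Nr4a3 were all called higher in 2 populations, M27.Trh and M26.Agrp. M27.Trh, named for thyrotropin-releasing hormone, had log2 differences, over Saline and Insulin libraries together, of 3.35 (SE 0.18) for Btg2, 3.05 (SE 0.47) for Nr4a3, 2.65 (SE 0.35) for Egr1 and 1.92 (SE 0.29) for Nr4a1. In its Saline libraries alone the mean of Nr4a1 was 10.2 CPM, against 9.91 CPM over all Saline neurons. The Saline mean of Btg2 was 32.7 CPM, below the 51.6 CPM of M26.Agrp, while in Insulin the order was the opposite (258 and 100.4 CPM). M26.Agrp, the hunger-promoting neurons with Agrp and Npy, had 2.25 (SE 0.15) for Btg2 and 1.98 (SE 0.25) for Egr1, with 1.04 (SE 0.43) for Nr4a3 and 0.72 (SE 0.23) for Nr4a1, and both lost the call without the Insulin library of run 230 (log2 1.19 and 0.64). Nr4a3 also lost it without that of run 232 (log2 0.24). M4.GABA and M31.Th, named for tyrosine hydroxylase, were called higher for Btg2, Nr4a1 and Nr4a3, at 2.86 (SE 0.43) and 2.42 (SE 0.40) for Nr4a3, and the Nr4a1 call of M31.Th was lost without the Insulin library of either run (log2 0.86 and 0.34). M24.Avp/Oxt, the vasopressin and oxytocin neurons, had the highest mean of Nr4a1, at 43.5 CPM over libraries that ranged from 8.22 to 101 CPM.

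At the low end, M8.Nr5a1, marked by the ventromedial factor Nr5a1, was called lower for Btg2 (-1.17, SE 0.18) and Nr4a1 (-0.98, SE 0.21). M12.Npffr1 was called lower for 3 genes, Btg2 (-0.97, SE 0.29), Nr4a1 (-0.99, SE 0.32) and Egr1 (-1.43, SE 0.50). Its Btg2 call was lost without the Insulin library of run 232 (log2 -0.75), its Nr4a1 call without either Saline library (log2 -0.85 and -0.99), and its Egr1 call without the Saline library of run 230 or either Insulin library (log2 -1.60 to -0.92). M11.GLUT was called lower for the same 2 genes as M8.Nr5a1, and M34.Esr1/Npy1r for Nr4a1 at -2.36 (SE 0.46) and for Btg2, whose call was lost without the Saline library of run 230 or the Insulin library of either run (log2 -1.01 to -0.62). Egr1 in M3.Pmch, the melanin-concentrating hormone neurons, had a log2 difference of 2.11 (SE 0.45) that rested on 1 library. It was at 1.58 and 77.2 CPM in Saline and 2.79 and 3.59 CPM in Insulin, and without the Saline library of run 232 the difference was -0.93.

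**Figure D4:**
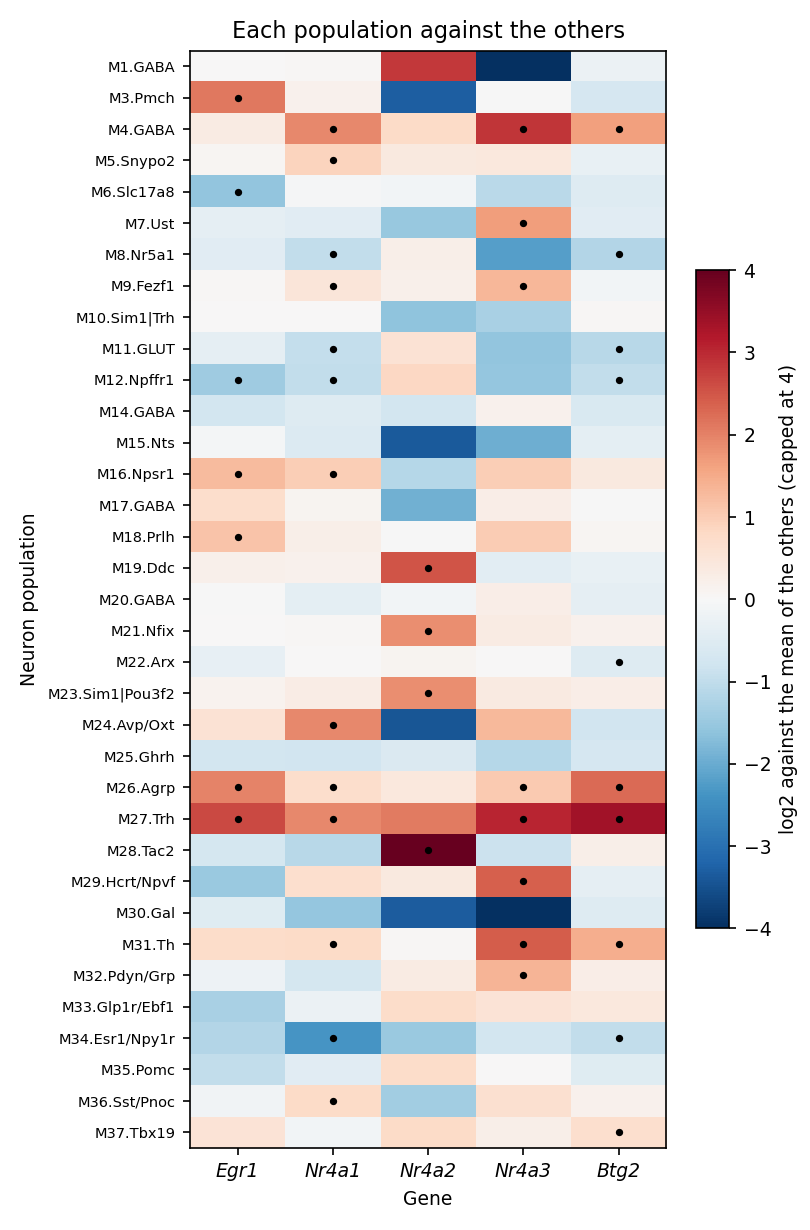
Log2 difference of each neuron population from the mean of the other 34, for the 5 early genes that passed the filter on low counts (red higher, blue lower, colour capped at 4). A black dot marks an adjusted p under 0.05, and only M27.Trh and M26.Agrp have dots for Egr1, Nr4a1, Nr4a3 and Btg2 together, while the dots of Nr4a2 lie in other populations.

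For insulin against saline within populations, the CPM of the 10 genes was summed. The sum was higher in Insulin within both runs in 23 of 35 populations and lower within both in 0. Both Insulin libraries lay above both Saline libraries in 21 populations and overlapped in 14. All populations come from the same 4 libraries, so these counts are not independent observations of the treatment. By gene, among populations with at least 30 UMIs of it, Btg2 was separated upward in 17 of 30 and downward in 0, Egr1 upward in 10 of 16 and downward in 0, and Nr4a1 upward in 9 of 29 and downward in 2. Over all 35 populations, the upward and downward counts were 17 and 0 for Btg2, 17 and 1 for Egr1 and 9 and 3 for Nr4a1. Within a population, the share of all tested genes separated upward was 16.2% in M26.Agrp and 15.0% in M27.Trh. Downward, the share was 14.5% in M26.Agrp. In M27.Trh, 1390 of 6958 genes were separated downward, more than the 1044 separated upward. Of all genes, 0.0431% of 6958 passed an adjusted p of 0.05 in M27.Trh (0.0% with the run as a block), and 0.0% did in M26.Agrp and M16.Npsr1 (0.285% and 0.295% with the block). These shares are given as background, and no call of a member is read from this contrast.

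M27.Trh had the largest difference. Its sum was 82.6 and 72.4 CPM in Saline and 323 and 545 CPM in Insulin. Btg2 was at 41.3 and 24.1 CPM in Saline and 204 and 313 CPM in Insulin, from 11 and 8 UMIs in Saline and 131 and 136 in Insulin. The lowest Insulin library was several times the highest Saline library, and the log2 change was 3.03 (SE 0.39), between 2.64 and 3.48 when each library was left out. Nr4a1 was at 11.3 and 9.04 CPM in Saline and 57.5 and 71.3 CPM in Insulin and Nr4a3 at 7.51 and 0 CPM in Saline and 20.2 and 36.8 CPM in Insulin, both without overlap. Egr1, at 18.8 and 33.2 CPM in Saline and 18.7 and 73.6 CPM in Insulin, overlapped, and Insulin of run 230 was as low as Saline of that run. After drawing 2000 UMIs, at least 1 member was detected in 3 of 31 and 1 of 34 Saline nuclei and in 30 of 75 and 26 of 58 Insulin nuclei. The number of nuclei with this annotation also differed, with 31 and 34 in Saline against 75 and 58 in Insulin. Trh itself was at 436 and 431 CPM in Saline and 275 and 579.9 CPM in Insulin.

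In M26.Agrp, which held 91 to 191 nuclei per library, the sum was 78.6 and 103 CPM in Saline and 176 and 172 CPM in Insulin. Btg2 was at 49.7 and 53.5 CPM in Saline and 111 and 89.4 CPM in Insulin, with a log2 change of 0.94 (SE 0.22). Egr1 was at 8.48 and 16.4 CPM in Saline and 34.6 and 32.2 CPM in Insulin, with a log2 change of 1.49 (SE 0.37). In both genes each Insulin library lay above each Saline library. Of the 36 other early genes, 17 were tested in M26.Agrp and all 17 had a higher mean in Insulin, with a median log2 change of 0.88 against 0.00343 for all genes. At least 1 member was detected in 12.1% and 19.8% of Saline and 29.6% and 22.7% of Insulin nuclei drawn to 2000 UMIs.

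M35.Pomc, the satiety neurons that oppose Agrp neurons, had overlapping groups. Its sum was 24.8 and 27.99 CPM in Saline and 32.1 and 27.4 CPM in Insulin. Btg2 was at 13.5 and 9.56 CPM in Saline and 14.1 and 10.96 CPM in Insulin and Nr4a1 at 7.88 and 10.2 CPM in Saline and 7.70 and 6.85 CPM in Insulin, the latter with both Insulin libraries below both Saline libraries from 5 to 15 UMIs. Egr2 and Egr3 had no UMI in these nuclei. The difference between M35.Pomc and M26.Agrp was not tested.

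In several other populations the Insulin library of run 232 was the highest, and in M4.GABA and M24.Avp/Oxt its sum was far above the rest. In M4.GABA the sum was 86.9 and 50.9 CPM in Saline and 99.7 and 303 CPM in Insulin, and Arc was at 4.51 and 3.92 CPM in Saline and 7.33 and 38.1 CPM in Insulin with Egr4 at 3.38 and 3.92 CPM in Saline and 5.86 and 29.4 CPM in Insulin. In M24.Avp/Oxt the sum was 24.7 and 37.9 CPM in Saline and 56.5 and 182 CPM in Insulin, of which Nr4a1 made up 8.22 and 20.9 CPM in Saline and 44.1 and 101 CPM in Insulin. In M31.Th the sum was 49.3 and 56.7 CPM in Saline and 96.1 and 174 CPM in Insulin, with Btg2 at 17.8 and 27.9 CPM in Saline and 49.1 and 84.2 CPM in Insulin and Egr1 at 1.37 and 3.85 CPM in Saline and 13.3 and 19.7 CPM in Insulin. M16.Npsr1 had Btg2 at 12.4 and 9.48 CPM in Saline and 24.9 and 35.03 CPM in Insulin. The lowest differences were those of M3.Pmch, where the sum was 15.8 and 132 CPM in Saline and 16.7 and 35.9 CPM in Insulin and the high value was the Saline library of run 232, and of M5.Snypo2, at 44.7 and 46.3 CPM in Saline and 29.6 and 50.8 CPM in Insulin. M28.Tac2, where Nr4a2 made up most of the sum, was at 68.5 and 126 CPM in Saline and 73.5 and 123 CPM in Insulin. M8.Nr5a1 was at 14.8 and 19.7 CPM in Saline and 16.6 and 25.6 CPM in Insulin, and M1.GABA, at 34.5 and 0 CPM in Saline and 15.01 and 105 CPM in Insulin, held only 0 to 10 UMIs of the members per library.

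**Figure D5:**
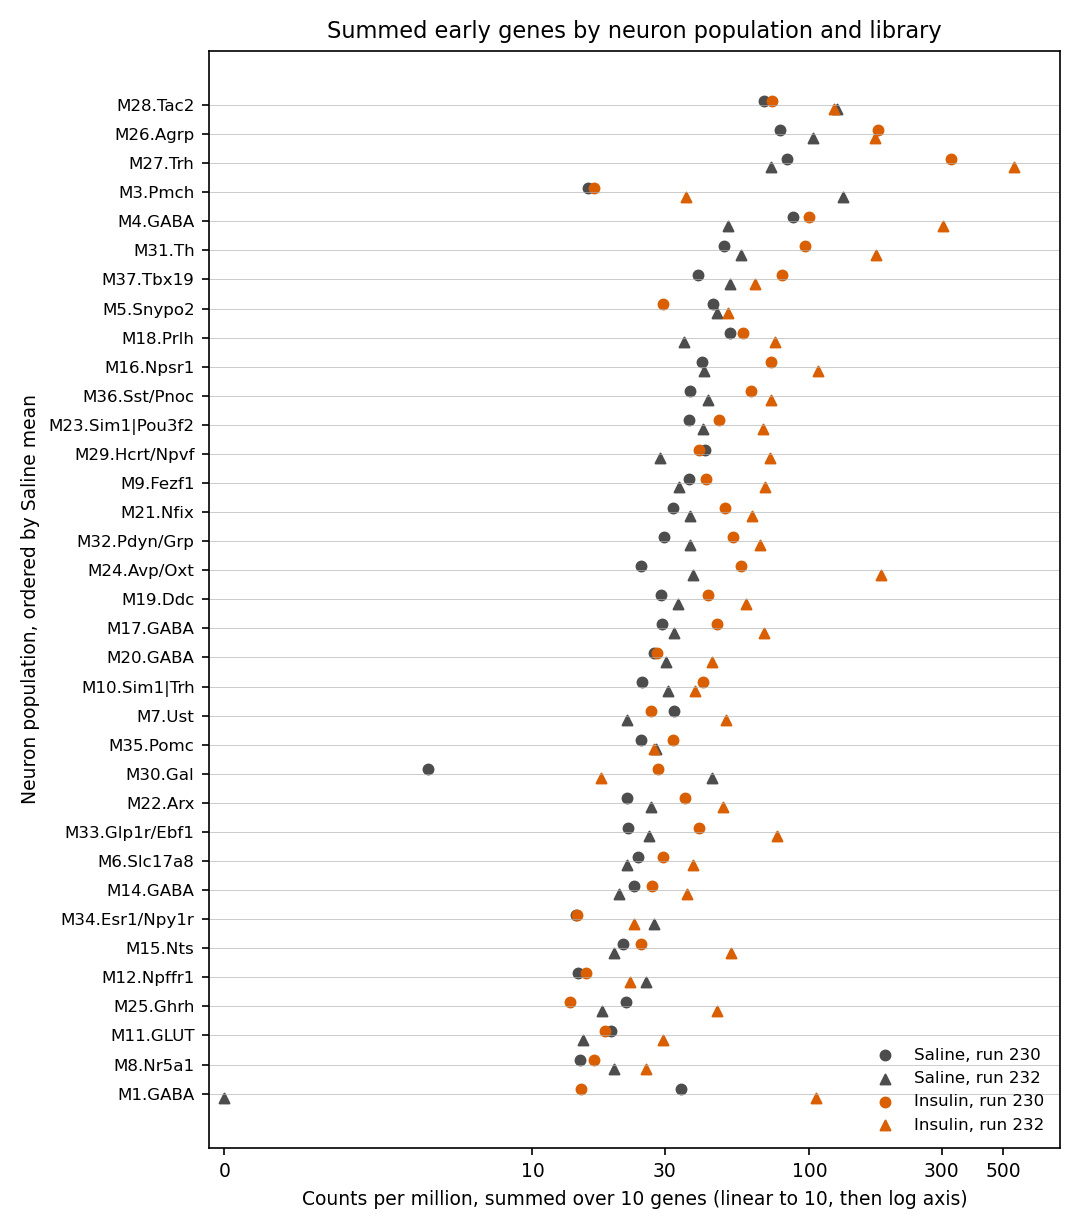
Summed CPM of the 10 early genes in each of 35 neuron populations, ordered by the Saline mean, with 1 point per library (circles run 230, triangles run 232, grey Saline, orange Insulin) on an axis that is linear up to 10 CPM and logarithmic above. The orange points of M27.Trh lie farthest right, both orange points of M26.Agrp lie right of the grey ones, and in M3.Pmch the rightmost point is the Saline library of run 232.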

How the data were processed

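Nuclei of 4 libraries were profiled with 10x 3′ chemistry. The deposited values are raw UMI counts per gene and nucleus that the authors made with Cell Ranger on GRCm38, per the submitters' processing notes. The version and the treatment of intronic reads are not given in the sources used here. Cell types and populations are the authors', from their deposited annotation, in which doublets had a class of their own. Of 36534 annotated nuclei, 36523 matched a barcode.

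Members, gene lists and tests were chosen with earlier results of these data known. Counts were summed per library and cell group with at least 10 nuclei in every library. They were fitted with edgeR 4.0.16 (R 4.3.3, limma 3.58.1; TMM, filterByExpr, quasi-likelihood test, Benjamini-Hochberg adjustment over all genes, threshold 0.05), with DESeq2 1.42.0 as an alternative. Simulated data were used to test the insulin against saline fit in neurons, with and without the run as a block. They were also used for neurons against the other cell types. The remaining fits were not simulated. For shares of nuclei, Python 3.11.15 drew 2000 UMIs per nucleus. Intervals are exact binomial (95%) and floors are 3 counts, and both cover counting error only. Named genes are all members and, per list, the 3 higher and 2 lower genes with the smallest p, plus the 5 genes most like the members by detection and the 5 by correlation. Library names in the deposited annotation carry no replicate number, so the run served as the replicate block. Differences between the runs, taken within Saline and within Insulin, correlated at 0.702 over 20549 genes (0.693 over 19553 in neurons). These values describe the runs and not the change from saline to insulin. Unused columns of per-sample values numbered 0.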

Additional observations from a re-analysis of the deposited data

Results flagged for a closer look

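Nr4a1 in M8.Nr5a1 was lower in Insulin. It was at 6.29 and 5.30 CPM in Saline and 3.84 and 4.84 CPM in Insulin, a difference of -1.45 CPM, with both Insulin libraries below both Saline libraries. Among populations with at least 10 UMIs of Nr4a1 in every library, 5 had both Insulin libraries above both Saline libraries. With at least 30 UMIs in all, 9 of 29 populations were separated upward and 2 downward, M8.Nr5a1 and M35.Pomc. The difference between populations was not tested.

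Barcodes that the authors left without annotation, 4633 of 41156, also held the members. Over these barcodes Btg2 was at 19.9 CPM, Nr4a1 at 10.4 CPM, Egr1 at 7.91 CPM, Nr4a2 at 3.36 CPM, Nr4a3 at 2.91 CPM, Ier2 at 2.72 CPM, Arc at 1.72 CPM, Egr4 at 1.29 CPM and Egr3 at 0.808 CPM. They entered no comparison.

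Nuclei that the authors' annotation calls Unassigned had high levels of 4 members. They were shallow, with a median of 757.5 to 1366 UMIs by library. Of their UMIs 0.803 to 4.31% were mitochondrial, against 0.00462 to 0.00789% in neurons. The mean over 4 libraries was 152 CPM for Ier2, 80.8 CPM for Egr1, 55.7 CPM for Btg2 and 26.6 CPM for Nr4a2. Ier2 was at 227 and 71.2 CPM in Saline and 286 and 23.997 CPM in Insulin, so that run 230 was higher than run 232 in both groups. The genes that led these nuclei over the named types were Anxa1, S100a9 and S100a8, at means of 4182, 3232 and 1384 CPM. Their part in the member levels was not tested.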

How the results depend on the processing

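In neurons the log2 change of each of the 10 members stayed positive in all 90 alternative fits, between 0.02 and 2.00. In all annotated nuclei Egr2 reversed to -0.25 without the Insulin library of run 232, and the other 89 alternatives kept their direction. With the run as a replicate block, calls among members in populations numbered 3 (1 without the block), counts that describe the fits and support nothing, since this contrast chose the members. The block changed no other count of members called. Leaving out each library gave 1 to 7 such calls in populations (7 without the Saline library of run 232, 2 without that of run 230) and 0 to 1 in cell types, where 1 appeared without the Saline library of run 230. Cell types against the others gave 13 to 21 calls when a library was left out (23 with all), with 13 without the Insulin library of run 232, and populations against the others gave 33 to 46 (42 with all). M3.Pmch Egr1 reversed to -0.93 without the Saline library of run 232. The run contrast gave 2 calls without the filter on low counts. The ratio of shares with any member was 1.24 without drawing UMIs. At 1000 UMIs the ratio for at least 2 members was 4.63, but 1.29 in run 230 and 13.9 in run 232. A ratio for at least 3 members could not be given because Saline was at 0. Cause was not tested in any of these. Leaving out libraries in populations and leaving out nuclei of shared barcodes were chosen after seeing the data.

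With 2 libraries per group, 2 residual degrees of freedom remain (1 with the block), and low members such as Egr2 rest on few UMIs.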
